A study of Mus musculus with 6 samples.

Results

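The genes of the glutathione and thioredoxin systems, which keep the thiol groups of a cell reduced, were followed in single oocytes of the mouse collected with an intact nucleus, which defines the germinal vesicle (GV) stage. The members were the 10 rows of the count table named Gpx1, Gpx4, Gsr, Gss, Gclc, Gclm, Txn1, Txn2, Txnrd1 and Txnrd2, out of 25239 genes, and they were chosen by name. The 6 libraries were 3 water-injected and 3 phthalate-injected GV oocytes of female CD-1 mice, an outbred strain, aged 4 to 6 weeks. All were injected as cumulus-oocyte complexes, with the surrounding cumulus cells in place, and then held in maturation medium with serum, follicle-stimulating hormone and pyruvate. The groups differ by the injected fluid, water or a mixture of phthalate metabolites, whose composition and dose the labels do not give. Phthalates are plasticizers, and the study's title asks what exposure to their metabolites does to oocyte development. The libraries were made with Smart-seq3, which primes poly(A) RNA with oligo(dT) and amplifies full-length cDNA.

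The labels name no animal or culture behind a library, so each group counts as 1 sample. Differences between them were therefore not checked on replicates, and no p-value is given. A library is named as an oocyte here because its title does so, but the wording of the protocol leaves it unclear whether a group had more than 1 oocyte. If it had only 1, then the spread between the libraries of a group, called oocytes below, would be technical only. Libraries held 252267 to 300917 gene counts. Counts were found for all 10 oocyte markers, led by Gdf9 with 2184 to 3296 per oocyte. Of 19 cumulus and granulosa markers, 11 were at 0 in every oocyte, Foxl2, Amh, Ptx3 and Tnfaip6 among them. Their summed level was 45.8 to 137 CPM after water injection and 36.4 to 81.3 CPM after phthalate injection, where CPM is a count divided by the gene counts of its library and scaled to 1000000. Nr5a2 held most of it, and the other 18 markers had 9 counts over the water oocytes and 14 over the phthalate oocytes. Of 8 stromal, blood and immune markers, 6 were at 0, and Dcn and Cd68 had 4 and 2 counts, all in the water oocytes. On these scales a lower amount of 1 RNA and a higher amount of all other RNA cannot be told apart.

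As background, glutathione is a small thiol peptide made from glutamate, cysteine and glycine. Glutamate-cysteine ligase, of the catalytic subunit Gclc and the modifier subunit Gclm, makes the first bond, and glutathione synthetase (Gss) adds glycine. Glutathione peroxidases spend it to reduce peroxides, and glutathione reductase (Gsr) restores it with NADPH. Thioredoxins are small proteins that reduce disulfides in other proteins, and thioredoxin reductases restore them, again with NADPH. Txn1 and Txnrd1 act in the cytosol and nucleus, Txn2 and Txnrd2 in mitochondria. Oocytes are known for storing glutathione, which is later used when the sperm nucleus is unpacked.

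The coding sequences that carry the chemistry are shown because they separate the members by reaction centre. Gpx1, Gpx4, Txnrd1 and Txnrd2 encode selenoproteins, in which a TGA codon inside the reading frame is read as selenocysteine. In the lines below, taken from GENCODE M21 transcripts on GRCm38 and written 5′ to 3′ on the coding strand, capitals mark that codon for the selenoproteins. For the thioredoxins they mark the stretch from the first to the last cysteine codon of the active site.
Gpx1: gtcgcgtctctcTGAggcaccacgatccgg
Gpx4: gtggcctcgcaaTGAggcaaaactgacgta
Txnrd1: cagtctggctgcTGAggt
Txnrd2: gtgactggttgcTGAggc
Txn1: gctacgtggTGTGGACCTTGCaaaatgatc
Txn2: gcacagtggTGTGGCCCCTGCaagatccta

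The selenocysteine codon of Gpx1 is codon 47 of 201, in exon 1 of 2 (chr9:108339451-108339453, plus strand). In Gpx4 it is codon 129 of the 253 in the longest transcript, in exon 3 of 7 (chr10:80054737-80054739, plus strand). In both thioredoxin reductases the codon stands just before the last codon, in the last exon. Its place is chr10:82896037-82896039 in Txnrd1 and chr16:18477772-18477774 in Txnrd2, both on the plus strand. A cysteine codon (TGC) precedes it directly in both reductases and in neither peroxidase. The active site of Txn1 is in exon 2 of 5 (chr4:57951821-57951832, minus strand) and that of Txn2 in exon 2 of 3 (chr15:77924651-77924662, minus strand). Counts per gene do not tell isoforms apart, such as the mitochondrial, cytosolic and nuclear forms of Gpx4.

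The GV oocytes carried the RNA of this system unevenly: 3 of the 10 members, Gpx4, Txn1 and Txn2, held 81.7% of the 968 counts of all members. Thioredoxins took 49.4%, peroxidases 36.0%, the genes of glutathione synthesis 8.57% and the reductases 6.10%. A count was found in at least 1 oocyte for 9 members and in all 6 oocytes for 6. Levels between genes were compared as TPM, counts divided by the length of the longest coding transcript and scaled to a sum of 1000000. Gpx4 stood highest at a mean of 400 TPM (270 to 583 over 6 oocytes), rank 438 among 12543 genes with a count and a length. Txn1 followed at 304 TPM (229 to 455) and Txn2 at 138 TPM (87.5 to 183).

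Gpx4 and Txn1 overlapped in their ranges and are not separated in level. Txn1 lay above Txn2, and Txn2 above Gpx1, without overlap between the oocytes. The gap between the thioredoxins rests on the longest transcript: with the median length their means were 205 and 193 TPM, and their CPM ranges overlapped (113 to 226 against 84.6 to 178). Gpx1 had a mean of 41.5 TPM (6.60 to 67.3), Txnrd1 a range of 8.55 to 33.9 TPM and Gclm 15.2 TPM (5.39 to 23.2), and these neighbours overlapped. Gclc had a mean of 3.70 TPM and Gss of 3.69 TPM, and each was at 0 in 3 oocytes. Txnrd2 had 1 count in all libraries together, and Gsr had 0. The order of the first 3 members was the same with the median transcript length and with no length correction, whereas 5 and 2 of the 10 members changed place. Gclm moved to 57.3 TPM with the median length, because its longest transcript has 5589 bases and its median coding transcript 1002.

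**Figure D1:**
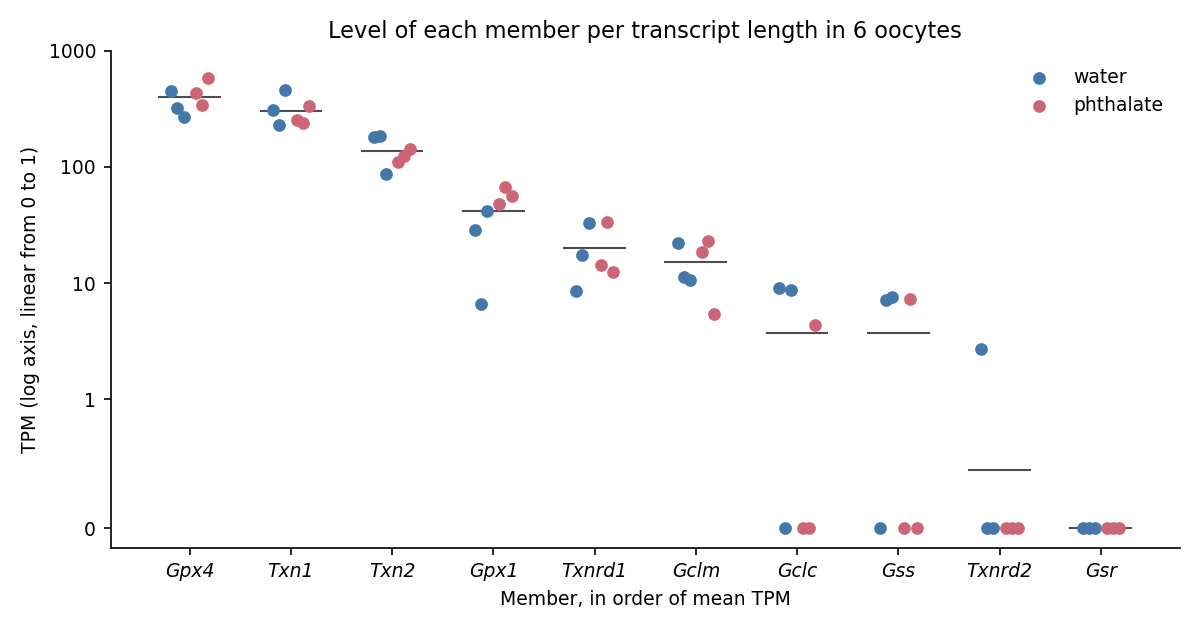
Level of each member in TPM (log axis, linear from 0 to 1) in the 3 water oocytes (blue) and 3 phthalate oocytes (red), in order of the mean over 6 oocytes (line). Gpx4, Txn1 and Txn2 lie between 87.5 and 583 TPM in every oocyte, while Gclc, Gss, Txnrd2 and Gsr have oocytes at 0.

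Gpx4 encodes the peroxidase that reduces lipid peroxides within membranes. It had 58, 45 and 36 counts in oocytes 1, 2 and 3 injected with water, and 50, 47 and 77 in those injected with phthalates, or 215, 150 and 127 CPM against 198, 159 and 280 CPM. Phthalate oocyte 3 was the highest, and the other 2 phthalate oocytes lay within the range of the water oocytes. The groups had 139 counts (95% Poisson interval 117 to 164) and 174 (149 to 202). After scaling by TMM, which sets library sizes from the bulk of the genes, the log2 ratio of phthalate over water was 0.40 (95% exact interval 0.07 to 0.73, or 1.32-fold). Counts here are mostly even numbers, as when both mates of a read pair are counted. On counts halved to pairs the interval of Gpx4 was -0.08 to 0.86 and held 0. Without phthalate oocyte 3 the log2 ratio was 0.10, while without water oocyte 1 it was 0.62 and past 1.5-fold. The intervals cover counting error only.

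The gene lies at chr10:80047166-80056439, plus strand. GENCODE holds 2 near-identical copies of Gpx4 elsewhere, with at least 95% identity over at least 150 bases. The longer alignment, with the pseudogene Gpx4-ps2, spans 733 bases at 99.7% identity. How the reads were shared with such copies is not stated, so the level of Gpx4 is uncertain to that extent.

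Gpx1 encodes the soluble peroxidase of hydrogen peroxide (chr9:108338903-108340343, plus strand). It had 4, 1 and 6 counts after water injection and 6, 10 and 8 after phthalate injection, or 14.8, 3.32 and 21.1 CPM against 23.8, 33.9 and 29.1 CPM. All 3 phthalate oocytes lay above all 3 water oocytes in CPM. The nearest values, water oocyte 3 and phthalate oocyte 1, had 6 counts each and were separated by their library totals alone. The sums were 11 counts (5.49 to 19.7) and 24 (15.4 to 35.7), a log2 ratio of 1.20 (0.11 to 2.37) or 2.29-fold. On read pairs the interval was -0.45 to 2.77.

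Groups that did not overlap with phthalate higher made up 4.52% of the genes that passed a filter on low counts (edgeR's filterByExpr). Gpx1 did not pass that filter, so its separation was read against genes of like abundance. In 2971 genes of mean count 3 to 10, the groups did not overlap with phthalate higher in 4.51%, and the ratio was at least 1.5-fold higher in 19.0%. The ratio of Gpx1 was 0.72 without water oocyte 2 and 1.76 without water oocyte 3. With library sizes taken from the ERCC spike-ins (synthetic RNAs added to the lysate) it was 1.31, and the groups then overlapped. The 19 cumulus and granulosa markers had 73 counts with water and 53 with phthalates, of which Nr5a2 had 64 and 39. The other 18 had 5, 0 and 4 counts against 3, 9 and 2. Their part in the values of Gpx1 was not tested.

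Gclm, the modifier subunit (chr3:122245557-122270732, plus strand), carried most RNA of glutathione synthesis. It had 16, 9 and 8 counts after water injection and 12, 18 and 4 after phthalate injection. In CPM that is 59.4, 29.9 and 28.2 against 47.6, 61.0 and 14.5, so that the phthalate group held both the highest and the lowest oocyte. The sums of 33 and 34 gave a log2 ratio of 0.12 (-0.62 to 0.85), and leaving out phthalate oocyte 2 gave -0.30. On read pairs the interval was -0.91 to 1.24. A change within these bounds could not be told from counting error at this depth, and a larger one could not be checked with 1 sample a group.

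Gclc, the catalytic subunit (chr9:77754535-77794485, plus strand), was near the floor of detection. It had 4, 0 and 4 counts after water injection and 0, 0 and 2 after phthalate injection. The sums of 8 (3.45 to 15.8) and 2 (0.242 to 7.22) gave a log2 ratio of -1.93, with an interval from -5.20 to 0.40. The ratio was -2.54 without water oocyte 2. Without phthalate oocyte 3, which held both phthalate counts, the sum of 0 was set to 3 counts and gave -0.80. Gss (chr2:155563181-155592810, minus strand) had 0, 2 and 2 counts against 0, 2 and 0, and its log2 ratio of -0.93 (-4.39 to 1.87) rests on 6 counts. For both genes the groups overlapped at 0 counts.

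Gsr, which restores oxidised glutathione (chr8:33652523-33698163, plus strand), had 0 counts in every oocyte. Over 1676410 gene counts, a limit of 3 counts allows a level of up to 1.79 CPM. That limit covers counting error only: the annotation and counting settings are not given in the sources used here, and their part in the 0 was not tested. RefSeq places the genes Gm24727 and Gm17803 over Gsr, Gssos2 over Gss, and Gm46822 and Gm6061 over Gclm, and reads in the shared stretches cannot be assigned without the strand setting, which is not stated.

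Txn1 encodes cytosolic thioredoxin (chr4:57943373-57956411, minus strand). It had 42, 34 and 64 counts after water injection and 31, 35 and 47 after phthalate injection, or 156, 113 and 226 CPM against 123, 119 and 171 CPM. The highest and the lowest values were both in water oocytes, and all 3 phthalate oocytes lay between them. The sums were 140 (118 to 165) and 113 (93.1 to 136), a log2 ratio of -0.24 (-0.61 to 0.13). Without water oocyte 3 it was 0.07. One near-identical copy, the processed pseudogene Txn-ps1, matches Txn1 over 309 bases at 95.8% identity.

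Txn2, the mitochondrial thioredoxin (chr15:77915047-77929006, minus strand), had 48, 53 and 24 counts after water injection and 26, 35 and 39 after phthalate injection. In CPM, water oocytes 1 and 2 (178 and 176) stood above all phthalate oocytes (103, 119 and 142), and water oocyte 3 (84.6) below them. The sums of 125 and 100 gave a log2 ratio of -0.25 (-0.64 to 0.14). Water oocyte 3 was thus the highest of all oocytes in Txn1 and the lowest in Txn2.

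The thioredoxins together were at 334, 289 and 310 CPM after water injection and 226, 237 and 313 CPM after phthalate injection. Phthalate oocytes 1 and 2 lay below the water group and phthalate oocyte 3 within it. The log2 ratio of their sums, 265 and 213 counts, was -0.24 (-0.51 to 0.02). The peroxidases together went the other way, with 150 and 198 counts and a log2 ratio of 0.47 (0.16 to 0.79, and 0.03 to 0.93 on read pairs). Their CPM values were 230, 153 and 148 after water injection and 222, 193 and 309 after phthalate injection, and the groups overlapped through water oocyte 1. The genes of glutathione synthesis had 45 and 38 counts with a log2 ratio of -0.17 (-0.83 to 0.48), and the reductases 30 and 29 with 0.02 (-0.76 to 0.81). These role sums were formed after the values of the members were seen.

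Among the member reductases, only Txnrd1 (chr10:82833951-82897712, plus strand) was counted in every oocyte. It had 4, 9 and 16 counts after water injection and 6, 17 and 6 after phthalate injection, or 14.8, 29.9 and 56.4 CPM against 23.8, 57.6 and 21.8 CPM. The sums were 29 in each group, for a log2 ratio of 0.07 (-0.72 to 0.87). Leaving out phthalate oocyte 2 gave -0.53 and leaving out water oocyte 3 gave 0.65. Eid3 and Gm38560, which overlap Txnrd1, had 0 counts. Txnrd2 (chr16:18426384-18479073, plus strand) had 1 count, in water oocyte 1, so no ratio is given.

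**Figure D2:**
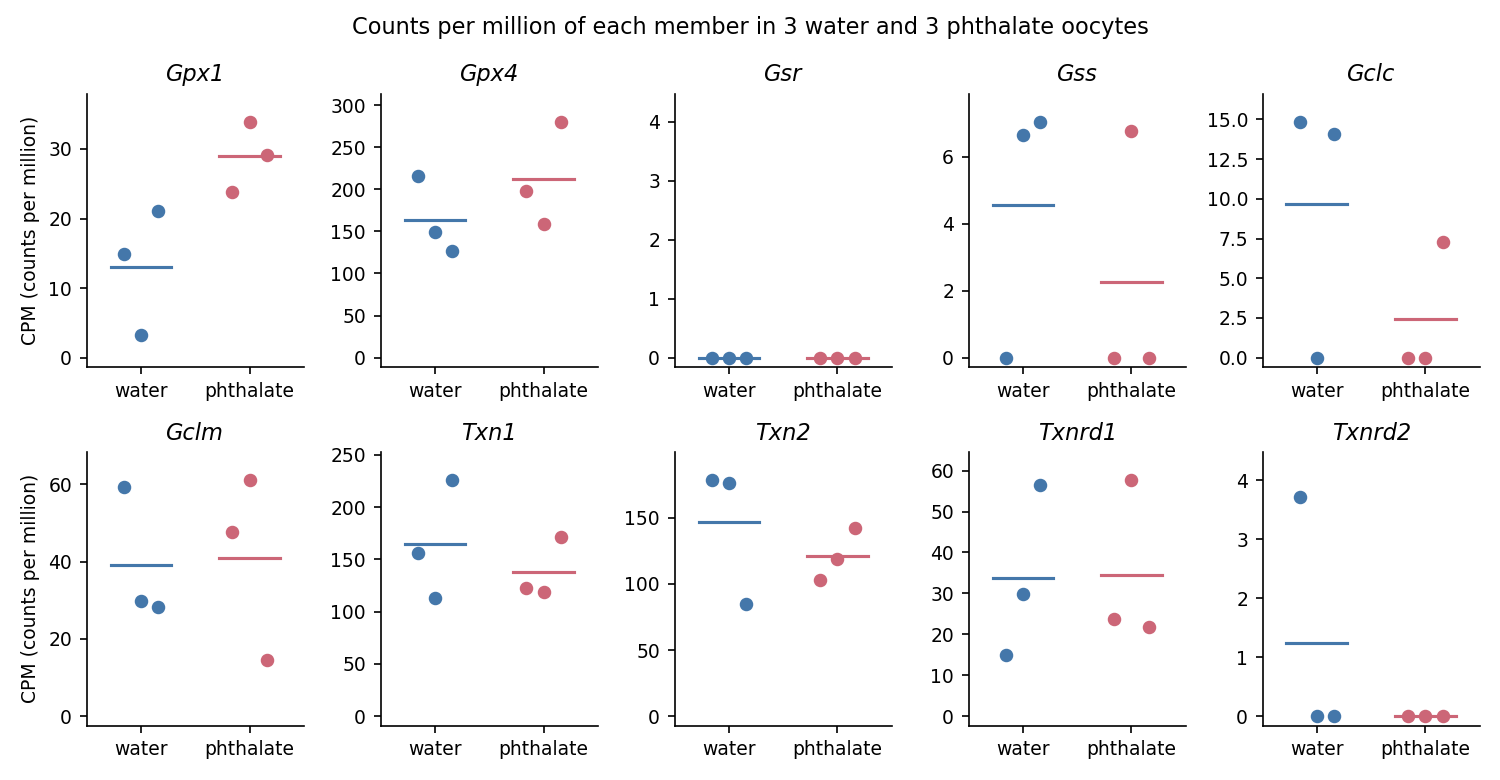
CPM of each member in the 3 water oocytes (blue) and 3 phthalate oocytes (red), points from left to right being replicates 1 to 3 and lines group means; each panel has its own axis from 0. The groups are apart only for Gpx1 (3.32 to 21.1 against 23.8 to 33.9 CPM), and Gsr is at 0 throughout.

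Summed over the 10 members, the difference between the groups was within counting error. The members took 490 counts with water, which is 0.0574% of all gene counts (exact 95% binomial interval 0.0524 to 0.0627), and 478 with phthalates, which is 0.0581% (0.0530 to 0.0636). The log2 ratio was 0.04 (-0.15 to 0.22). The 6 glutathione members had 195 and 236 counts and a log2 ratio of 0.35 (0.07 to 0.63, and -0.06 to 0.74 on read pairs). The 4 thioredoxin members had 295 and 242 counts and a log2 ratio of -0.21 (-0.46 to 0.04). Both sums overlapped between the groups, at 189 to 304 against 261 to 331 CPM for glutathione and 319 to 366 against 250 to 335 CPM for thioredoxin. Without Gpx4 the ratio of all members was -0.14, and without phthalate oocyte 3 that of the glutathione members was 0.19.

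A ratio could be given for 8 members, of which 4 lay above 0 and 4 below, with a median log2 ratio of -0.08. Over the 4644 genes that passed the filter the median was 0.01. Past a ratio of 1.5-fold were Gpx1 upwards and Gclc and Gss downwards, 3 members that did not pass the filter. Among genes of mean count 3 to 10, 19.0% were past this fold upwards and 24.4% downwards, and Gclc and Gss had fewer counts still. In all, 6 of the 10 members did not pass it. None of the 4 that passed, Gpx4, Gclm, Txn1 and Txn2, was past 1.5-fold, and none had groups that did not overlap. Among the 4644 genes, 6.96% were at least 1.5-fold higher and 8.14% at least 1.5-fold lower in the phthalate group (10.4% and 5.19% with ERCC totals). The groups did not overlap with phthalate higher in 4.52% and with phthalate lower in 5.49% (1.98% and 0.603% with ERCC totals). In the range of the 4 members, mean counts from 10 to 60, the shares past the fold were 7.90% higher and 9.46% lower. At these shares a count of 0 among 4 members is near the background.

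**Figure D3:**
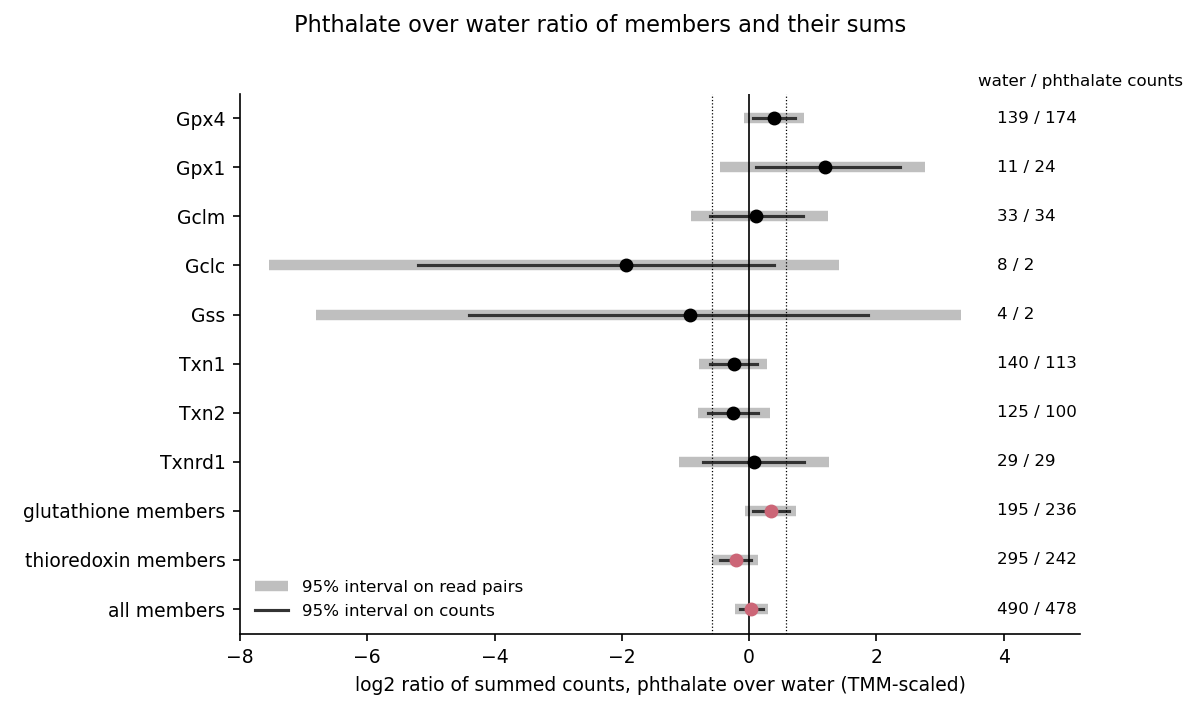
Log2 ratio of summed counts, phthalate over water (TMM-scaled), for the 8 members with a ratio (black) and for the sums of the glutathione, the thioredoxin and all members (red); dark lines are 95% exact intervals on counts, grey bars those on read pairs, dotted lines mark 1.5-fold, and summed counts stand at the right. Each of the 11 intervals on read pairs drawn here crosses 0, and those of Gclc (8 and 2 counts) and Gss (4 and 2) span most of the axis.

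The spread between oocytes of 1 group was set beside the spread that counting alone gives. The coefficient of variation (CV, the SD as a percentage of the mean) of Gpx4 was 28% over the water and 29% over the phthalate oocytes. Counting of read pairs alone gives 20.8% and 18.6%. For Txn1 the CV was 34.5% and 21.1%, with 20.7% and 23.0% from read pairs, and for Txn2 36.5% and 16.1%, with 21.9% and 24.5%. The CV of Txnrd1 was 62.4% and 58.5%, beside 45.5% from read pairs in each group. Each CV rests on 3 oocytes, and whether it differs from counting alone was not tested.

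Other genes of the pathway were taken from 9 lists with 108 genes, of which 80 had a count, 28 were at 0 and 37 passed the filter. The median log2 ratio of the 37 was 0.07. Of them, 5 were at least 1.5-fold higher and 1 lower in the phthalate group, beside 6.96% and 8.14% of all genes that passed. Groups did not overlap for 2 in each direction, beside 4.52% higher and 5.49% lower over all genes. The intervals given below for these genes are on counts not halved to read pairs. Halving widened the ratio interval of every member that had one, and was not done for these genes.

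Glutaredoxins, which use glutathione to reduce mixed disulfides, had counts for 4 of 4 genes, of which 2 passed the filter and 0 were past the fold. Glrx had 138, 193 and 178 counts after water injection and 90, 123 and 200 after phthalate injection, a mean of 859 TPM and a log2 ratio of -0.23 (-0.42 to -0.04) with overlapping groups. Glrx5, the mitochondrial form that serves iron-sulfur cluster assembly, had 359 and 398 counts and a ratio of 0.22 (0.01 to 0.43). Glrx3 had 6 and 7 counts. Of the other glutathione peroxidases, Gpx3 had 15 and 22 counts and Gpx6 had 9 and 13, and the remaining 4 (Gpx2, Gpx5, Gpx7 and Gpx8) were at 0.

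Glutathione transferases, which join glutathione to foreign compounds, had 5 of 26 genes past the filter, with 1 past the fold. Gstt2 had 29, 12 and 12 counts after water injection and 28, 51 and 21 after phthalate injection, a log2 ratio of 0.99 (0.49 to 1.5). Water oocyte 1 lay above phthalate oocyte 3, so the groups overlapped. Gsta4 had 239 and 211 counts, a ratio of -0.11 (-0.38 to 0.17) and groups that did not overlap, and Gstp1 had 62 and 80 counts, a ratio of 0.44 (-0.06 to 0.94). Counts may be shared between close relatives in this family.

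In glutathione turnover, Ggct, which degrades gamma-glutamyl peptides, was the most abundant gene, with 1199 and 1147 counts and a log2 ratio of 0.01 (-0.11 to 0.13). The subunits of the cystine importer, Slc7a11 and Slc3a2, had ratios of 0.30 (-0.08 to 0.68) and -0.02 (-0.35 to 0.31). Of 6 genes of this list that passed the filter, 1 was past the fold. It was Ggt1, an enzyme that cleaves extracellular glutathione, with 44 and 19 counts, a mean count of 10.5 and a ratio of -1.14 (-2.00 to -0.33); it is named because it is the only gene of the 37 past the fold downwards.

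Thioredoxin-like genes had 10 of 20 past the filter, with 1 past the fold upwards. Txndc9, a thioredoxin-like partner of the chaperonin, had 258, 281 and 260 counts after water injection and 259, 310 and 271 after phthalate injection, and a log2 ratio of 0.14 (0.00 to 0.29) with groups that did not overlap in CPM. Txnip, which binds and inhibits thioredoxin, had 538 and 565 counts and a ratio of 0.14 (-0.03 to 0.32), and Txndc5 had 167 and 173. The gene past the fold, Txnl1, had 18, 18 and 4 counts against 17, 25 and 27 and a ratio of 0.86 (0.28 to 1.46). Its groups did not overlap in CPM, with the nearest values at 66.8 and 67.4, and it is named after its values were seen. Among reductases fed by thioredoxin, Rrm2b, a ribonucleotide reductase subunit, had 130 and 160 counts with a ratio of 0.37 (0.03 to 0.72), while Rrm1 had 34 and 33 and Msrb3 18 and 22.

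The genes that insert selenocysteine had counts for 8 of 8, of which 6 passed the filter and 1 was past the fold. Sephs2, which makes the selenium donor, had 78 and 68 counts and a log2 ratio of -0.13 (-0.62 to 0.36). Secisbp2l, a binding protein for selenoprotein RNAs, had 94 and 85 and a ratio of -0.07 (-0.51 to 0.37), and Eefsec, the elongation factor for selenocysteine, 59 and 78 and a ratio of 0.47 (-0.03 to 0.99). The gene past the fold was Sepsecs, the selenocysteine synthase, at 0.59 (0.01 to 1.18), just over the threshold of 0.585, and is named after its values were seen.

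NADPH is the electron source of both systems, and of 10 genes of its supply 6 had counts, 3 passed the filter and 1 was past the fold. G6pdx, which feeds it from glucose, had 545 and 528 counts and a log2 ratio of 0.03 (-0.15 to 0.20), and Me1, malic enzyme, 239 and 206 and a ratio of -0.14 (-0.42 to 0.13). Nadk, the kinase that makes NADP from NAD, had 14, 10 and 6 counts after water injection and 23, 20 and 12 after phthalate injection, a ratio of 0.95 (0.28 to 1.64). Water oocyte 1 lay above phthalate oocyte 3, and the groups overlapped. Idh2, Nnt and Me3, which supply NADPH in mitochondria, were at 0 in every oocyte. They, like the 4 peroxidase genes at 0, are named outside the rule, after their values were seen.

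NRF2, encoded by Nfe2l2, is the factor that raises many of these genes under oxidative stress, and KEAP1 holds it back. Of the 11 genes listed around it, 8 had counts and 3 passed the filter, with 1 past the fold upwards (Mafg) and 0 downwards. The median log2 ratio of only those 3 was -0.47, which is the value of Keap1. Nfe2l2 had 1, 0 and 4 counts after water injection and 4, 0 and 3 after phthalate injection. Of its known targets, Hmox1 and Srxn1 were at 0 in all oocytes, and Nqo1 had 10, 4 and 0 counts against 6, 5 and 6; these 4 genes are given as the pathway's defining genes, outside the naming rule. Nfe2l1, a related factor that drives proteasome genes, had 29, 31 and 26 counts against 20, 26 and 11, a log2 ratio of -0.52 (-1.03 to -0.02) with groups that did not overlap. Keap1 had 45 and 31 counts, a ratio of -0.47 (-1.17 to 0.23). Mafg, a small partner of NRF2, had 30 and 43, a ratio of 0.59 (-0.11 to 1.31) with overlapping groups.

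**Figure D4:**
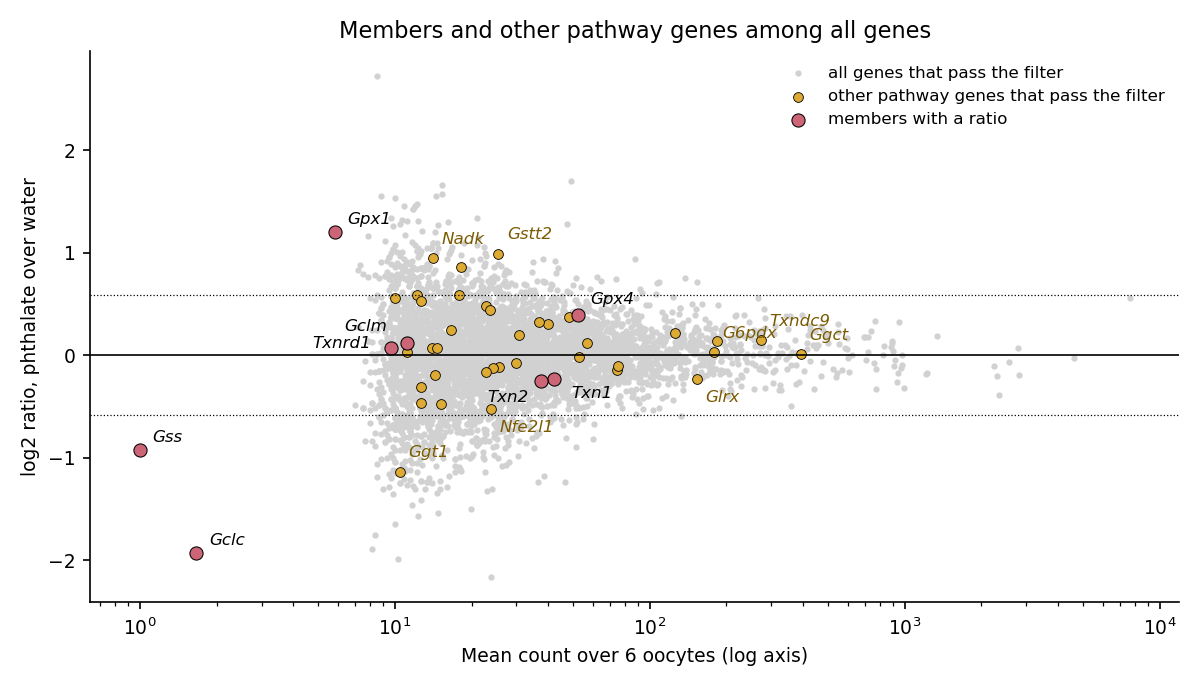
Log2 ratio of phthalate over water against the mean count over 6 oocytes (log axis) for the 4644 genes that passed the filter (grey), the 37 other pathway genes among them (yellow) and the 8 members with a ratio (red); dotted lines mark 1.5-fold. Gpx4, Txn1 and Txn2 lie inside the dotted lines, and Gpx1, Gclc and Gss lie outside them at mean counts below 10.

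The promoters of the members were searched for the core of the antioxidant response element, the site that NRF2 binds, spelled TGACNNNGC, on both strands of the 250 bases before each RefSeq start. The table held 13 windows for 8 members. The core was found in 2 windows (15.4%), beside 3338 of 32851 windows of all genes (10.2%). The matches, in capitals as read on the gene's strand, both run on the opposite strand.
Gclm, chr3:122245414-122245440: ctcccgggcGCACCGTCAactctcacg
Txnrd1, chr10:82859105-82859131: tggatttttGCTTTGTCAttctgacac

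Only this 1 motif was searched, so its overlap with other motifs was not looked at. In the same windows of Gss, Txn1, Gpx1, Gpx4, Txn2 and Txnrd2 these letters were not found. Gclm and Txnrd1 had log2 ratios of 0.12 and 0.07, as given above.

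Gpx4 had the highest mean count of the members, 52.2, and its profile over the 6 oocytes was compared with those of the 448 genes whose mean count was 100 or more. Unlikeness was measured on log2 CPM, each gene set to its own mean, as the root of the mean squared difference over the oocytes (pseudocount of 1 CPM). The closest was Eef2k, a kinase of elongation factor 2, at 0.10, with 173, 134 and 115 counts after water injection and 152, 129 and 197 after phthalate injection. Camk2g, a calcium-dependent kinase, followed at 0.20 and Selenow, a selenoprotein, at 0.22. The median difference over the 448 genes was 0.43. As in Gpx4, phthalate oocyte 3 was the highest oocyte in each of the 3 genes. They were picked for likeness, so that closeness is a description only.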

How the data were processed

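The table the authors deposited holds raw counts, whole numbers, for 25239 gene symbols and 92 ERCC spike-ins. The submitters' processing notes name cutadapt, Trimmomatic, HISAT2, DESeq2 and mm10, without versions or roles; the counting tool, annotation, strand and use of molecular identifiers are not given in the sources used here. Members, lists and rules were chosen with earlier results of these data known. ERCC counts stayed out of totals. Genes passed edgeR's filterByExpr (edgeR 4.0.16, R 4.3.3; minimum count 10, minimum total 15). Group ratios (log2) compare summed counts over TMM-scaled totals. A sum of 0 was set to 3 counts, and no ratio was given where both sums were at most 3. Intervals are 95%, exact (Clopper-Pearson for ratios and shares, Poisson for sums), and cover counting error only. A call means a ratio of at least 1.5-fold. Of the symbols, 24366 had a GENCODE M21 length. Copies were found with blastn 2.17.0. Named pathway genes are the 3 with the highest mean count per list and those with a mean count of at least 20 past the fold; genes named outside this rule are marked in the text. The ratios were also run on simulated Poisson counts with 200 changed genes, where 94.5% of the intervals held the true ratio. That simulation had no read pairs and no spread between oocytes beyond counting, so it does not test the intervals on these data. Alternatives were 3 other scalings, 2 other filters, equal weights, removal of Rn45s (the ribosomal RNA precursor) and each oocyte left out.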

Additional observations from a re-analysis of the deposited data

How the results depend on the processing

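The ratios of single members under the alternatives stayed inside their counting intervals. That of Gss ranged from -1.49 (without water oocyte 1) to 0.33 (without phthalate oocyte 2, its sum of 0 set to 3 counts), and could not be had without water oocyte 2 or 3. Leaving out 1 oocyte gave log2 ratios from 0.10 to 0.62 for Gpx4 and 0.72 to 1.76 for Gpx1. For Gclc it gave -2.54 to -0.80, the latter without phthalate oocyte 3, its sum of 0 set to 3 counts. For Txn1 the range was -0.47 to 0.07 and for Txn2 -0.52 to -0.06. The median of the members ranged from -0.19 to 0.07, and the sum of all members from -0.12 to 0.13. Members past 1.5-fold numbered 1 to 2 upwards and 1 to 2 downwards, against 1 and 2 with all oocytes, Gpx4 joining upwards without water oocyte 1 or phthalate oocyte 2 and Txnrd1 without water oocyte 3. Over all genes that passed, 8.52 to 10.5% were then past the fold upwards and 9.40 to 11.9% downwards. Members without overlap numbered 1 to 2 upwards and 0 to 1 downwards, where 2 values are set against 3, beside 8.73 to 12.1% and 9.11 to 12.1% of all genes. Under ERCC totals none was apart (0 upwards), and the median of all genes shifted to 0.12. With no filter, 17.0% of 12804 genes were past the fold upwards and 19.1% downwards. In the level order, 5 members changed place with the median transcript length and 2 with no length correction. The sum without Gpx4 (-0.14) was added after the data were seen, as were the sums by role and the abundance ranges. No paired analysis was possible because a group counts as a single sample and the values come from no test. Depth limits Gclc, Gss and Txnrd2, with 1 to 10 counts each over all libraries, while Gsr had 0 in every library.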
